A study of Oreochromis niloticus with 12 samples.

Results

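Steroid hormones are made from cholesterol, and 6 genes of its entry into the cell and of the first steps of its conversion were followed here across gonads of Nile tilapia (Oreochromis niloticus). They are scarb1, star, tspo, cyp11a2, fdx1 and hsd3b1, chosen by their symbol from a table of 22283 genes, of which 17380 carried a symbol. All 6 were present as 1 row each, with no other copy under the same symbol, and all 6 passed the filter on low values in every comparison. The data were RNA sequencing of 12 libraries, 3 in each of 4 groups, from testis and ovary of sexually mature fish labelled either control or SF1-suppressed. SF1 is the protein of nr5a1, a nuclear receptor that activates steroid synthesis genes in the vertebrate gonad.

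Per the labels, eggs were shaken for 15 min with 0.8 mL of transfection reagent before fertilisation, so all groups, controls included, came from eggs handled with that reagent. For the SF1-suppressed fish the reagent carried amplified antisense fragments against SF1, of which the labels name 4: Anti-SF1-1-I, next to it Anti-SF1-1-II, then Anti-SF1-2-I, and with it Anti-SF1-2-II. For control fish it carried either ultrapure water or a blank plasmid. Larvae were kept for 30 days in a small system and then moved to a large one, and the culture lasted 150 days. The labels do not say which fragment or which control a library came from, nor whether a library was 1 fish or a pool, so p-values here measure only the spread between these libraries, which may be technical. No strain or allele is given, and the fragments had been applied to the egg, with no measure in the labels of how much reached the adult gonad.

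In steroid-making cells, cholesterol is taken up from lipoproteins or released from stores, moved across the mitochondrial membranes, and cleaved at its side chain to pregnenolone by a cytochrome P450 that receives its electrons from a ferredoxin. Pregnenolone is then turned into progesterone, from which androgens, oestrogens and corticosteroids are made. In the testis these steps are carried out mainly by Leydig cells and in the ovary by theca and granulosa cells around the oocyte, under the control of gonadotropins and of SF1. In the libraries, 3 of the 6 genes had their higher level in testis and 3 in ovary, and 2 of the former, star and hsd3b1, were higher in testis labelled SF1-suppressed than in control testis.

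No fall of nr5a1, the targeted gene, was found by its counts under the SF1-suppressed label. Without a known strand setting, reads of any antisense SF1 transcript could not be told apart from those of nr5a1. The level of nr5a1 mRNA alone was therefore not tested, and neither was that of the SF1 protein. In control testis nr5a1 stood at 9.26, 11.8 and 17.9 FPKM (the authors' fragment level, scaled for transcript length and library depth), and in testis labelled SF1-suppressed at 23.7, 24.3 and 6.34 FPKM. In ovary it stood at 1.37, 1.95 and 2.80 FPKM in controls and at 1.35, 2.95 and 1.73 FPKM under the label. The groups overlapped in both tissues. The log2 change was 0.58 in testis (edgeR quasi-likelihood test, adjusted p = 0.415) and 0.04 in ovary (adjusted p = 0.935), and every direction below therefore refers to the label and not to a measured loss of SF1. Replicate 3 of the labelled testis had the lowest nr5a1 of the 6 testis libraries, and it also stands apart from its group for several genes below. Library totals ran from 36.8 to 60.5 M counts. The tissue labels were set against dmrt1 and zar1, named after their values were seen. dmrt1, a male factor of Sertoli cells, had mean levels of 268 and 299 FPKM in the testis groups and 1.04 and 3.25 FPKM in the ovary groups. zar1, an oocyte gene, had 4.89 and 5.22 FPKM in testis and 955 and 1250 FPKM in ovary. Of 6 oocyte markers tested, 5 were higher in ovary, in controls and under the label, beside 42.3% and 39.9% of all genes. The other, figla, was higher in testis in both.

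Control testis and control ovary differed in the level of each member of the set. star, whose protein delivers cholesterol to the inner mitochondrial membrane, was 79.8-fold higher in testis by its mean level. cyp11a2, the P450 that cleaves the cholesterol side chain, was 20.1-fold higher there, and hsd3b1, the dehydrogenase that makes progesterone from pregnenolone, was 8.40-fold higher. The other 3 were higher in ovary. scarb1, the cell surface receptor that takes cholesteryl ester from high density lipoprotein, was 15.0-fold higher in ovary. fdx1, a mitochondrial ferredoxin by its symbol, was 4.74-fold higher there, and tspo, a cholesterol-binding protein of the outer mitochondrial membrane, was 3.78-fold higher. All 6 passed the test between the control tissues, where 86.3% of the 14719 genes tested did so, 44.1% higher in testis and 42.3% higher in ovary, so a difference between these tissues was usual for any gene.

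In single libraries, star stood at 213, 238 and 314 FPKM in control testis and at 3.07, 2.77 and 3.74 FPKM in control ovary. cyp11a2 stood at 155, 180.3 and 241 FPKM in control testis and at 7.78, 9.68 and 11.2 FPKM in control ovary. hsd3b1 stood at 107, 119 and 140.0 FPKM in control testis and at 10.7, 14.7 and 18.1 FPKM in control ovary. For each of these genes the lowest testis library was several times above the highest ovary library. The log2 difference, testis over ovary, was 6.13 ± 0.18 (SE) for star, 4.14 ± 0.18 for cyp11a2 and 2.89 ± 0.18 for hsd3b1, with adjusted p of 2.77e-09, 2.84e-08 and 2.94e-07 (edgeR quasi-likelihood test). Ranked by FPKM among all genes, star took places 168 to 336 in the control testis libraries and places 9850 to 10441 in the control ovary libraries.

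The opposite held for scarb1, fdx1 and tspo. scarb1 stood at 7.22, 6.82 and 7.18 FPKM in control testis and at 117, 107 and 94.7 FPKM in control ovary. fdx1 stood at 33.1, 40.6 and 46.8 FPKM in control testis and at 191, 186 and 194 FPKM in control ovary. tspo stood at 83.3, 66.4 and 58.7 FPKM in control testis and at 274, 276 and 238 FPKM in control ovary. Every ovary library was above every testis library for all of the 3. The log2 difference, testis over ovary, was -4.09 ± 0.10 (SE) for scarb1, -2.43 ± 0.12 for fdx1 and -2.10 ± 0.14 for tspo, with adjusted p of 1.02e-09, 5.54e-08 and 5.72e-07 (edgeR quasi-likelihood test).

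fdx1, a ferredoxin by its symbol, and cyp11a2, whose protein receives electrons from a ferredoxin, thus lay on opposite sides. No gene was found under the symbols fdx1b or fdx2, and the functional terms given for fdx1 belong to another enzyme. Whether the fdx1 protein serves cyp11a2 in tilapia was not tested. The fdx1 FPKM were 4.74-fold higher in control ovary while those of cyp11a2 were 20.1-fold higher in control testis. fdxr, the reductase that passes electrons to ferredoxin, was on the side of cyp11a2, with mean levels of 34.0 ± 9.03 FPKM in control testis and 13.1 ± 0.993 FPKM in control ovary (SD, n = 3) and a log2 difference of 1.19. The gene model used for the FPKM of fdx1 was short. The length implied by its counts and FPKM was 391 to 393 bases, against 2950 to 2963 bases for star. A level per length of fdx1 thus rests on few positions. tspo was short as well, at 510 to 512 bases.

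**Figure D1:**
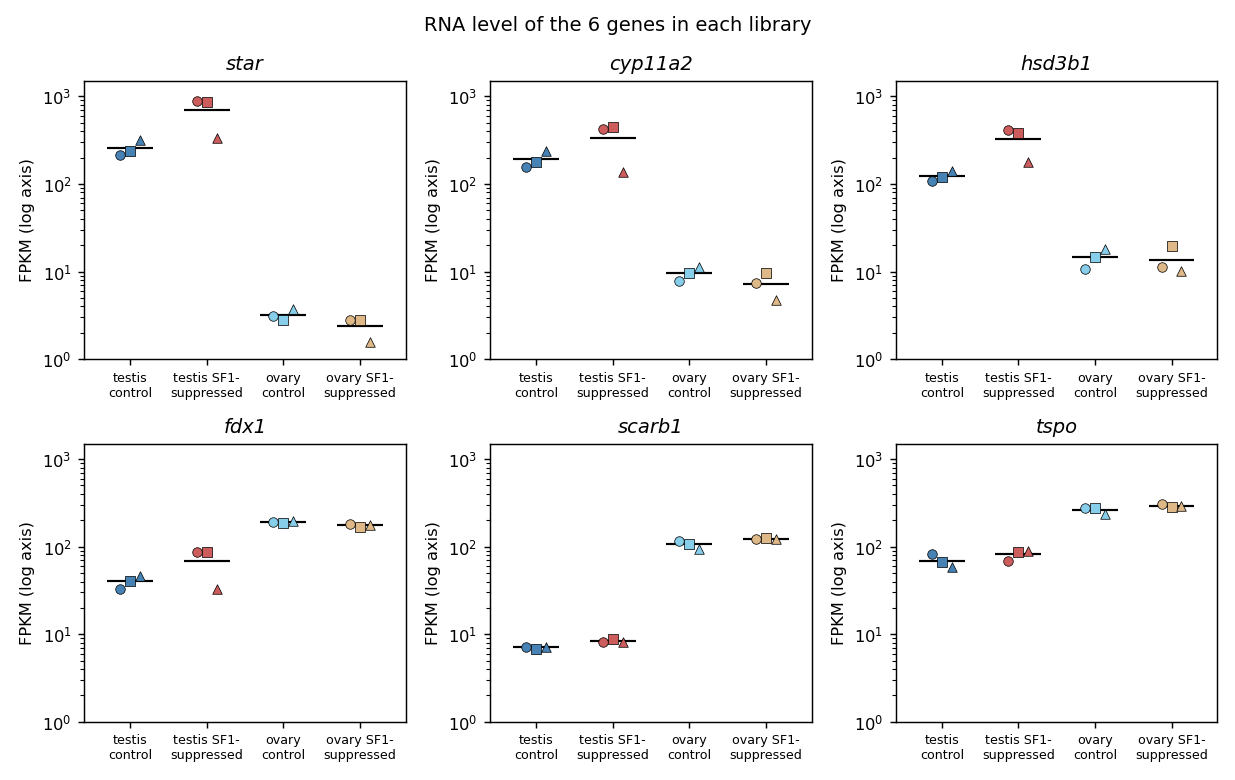
Level of each of the 6 genes in FPKM (log axis) in each library, with circles, squares and triangles for replicates 1, 2 and 3 and a line at the group mean. star, cyp11a2 and hsd3b1 sit high in testis and low in ovary, fdx1, scarb1 and tspo the reverse, and replicate 3 of the labelled testis (triangle) lies below its group for star, cyp11a2, hsd3b1 and fdx1.

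In the authors' annotation, star (ENSONIG00000010793) lies on scaffold GL831172.1 from 1155429 to 1158987 on the plus strand. cyp11a2 (ENSONIG00000015391) lies on GL831142.1 from 7827264 to 7829756 on the minus strand. hsd3b1 (ENSONIG00000015700) lies on GL831347.1 from 609450 to 614267 on the plus strand. The 6 genes were on 6 different scaffolds. fdx1 (ENSONIG00000012006) spans 1766206 to 1768021 on the plus strand of GL831144.1, scarb1 (ENSONIG00000011465) spans 8361704 to 8377327 on the minus strand of GL831139.1, and tspo (ENSONIG00000014391) spans 1196845 to 1197545 on the minus strand of GL831288.1. The genome build is not given in the sources used here. tspo lies inside the span of uqcc2, a gene for an assembly factor of a respiratory complex, on the opposite strand. Since the strand setting of the libraries is not given in the sources used here, reads of tspo and uqcc2 could not be told apart where their exons meet. In FPKM uqcc2 was low, at 5.82 to 8.26 over the 6 testis libraries and 21.99 to 26.95 over the 6 ovary libraries. Its counts were not low beside those of tspo. They were 1201 to 1947 in control testis, where tspo had 1106 to 1739. In control ovary uqcc2 had 6569 to 7531 counts and tspo 6921 to 7307. The 2 genes also differed alike between the tissues. The log2 difference, testis over ovary, was -2.04 for uqcc2 and -2.10 for tspo in controls, and -1.95 and -1.98 under the label. How many reads the 2 genes share was not tested, and neither was the part of tspo alone in its difference between the tissues.

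In testis, 2 of the 6 genes were higher under the SF1-suppressed label by the test, star and hsd3b1, each by nearly the same factor. Over all 14368 genes tested in testis, 10.9% passed, 5.25% as higher and 5.68% as lower. The FPKM ranges of star, hsd3b1 and scarb1 did not overlap between the groups, all with the labelled libraries higher, as was the case for 12.5% of the genes tested. The other 4 genes had positive log2 changes that did not pass. A fall in the number of cells of a type and a fall in RNA per cell cannot be told apart in bulk tissue, and the same holds for a rise.

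For import into the mitochondrion, star went from 213, 238 and 314 FPKM in control testis to 889, 871 and 336 FPKM in testis labelled SF1-suppressed. Replicates 1 and 2 of the labelled group were far above all controls, and replicate 3 was just above the highest control. The mean rose from 255 ± 53.0 to 698 ± 314 FPKM (SD, n = 3), a 2.74-fold difference of the means, with a log2 change of 1.55 ± 0.32 (SE) that passed at an adjusted p of 0.0232 (edgeR quasi-likelihood test). In the labelled testis the star mRNA took places 64 to 210 among all genes by FPKM.

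hsd3b1 rose alongside it, from 107, 119 and 140.0 FPKM in control testis to 413, 383 and 177 FPKM under the label. All of the labelled libraries were above all controls, and replicate 3 was again the lowest of its group. The means were 122 ± 16.6 and 324 ± 129 FPKM (SD, n = 3), a 2.66-fold difference, with a log2 change of 1.51 ± 0.27 (SE, adjusted p = 0.0135, edgeR quasi-likelihood test).

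The cleavage step lay between them in the pathway but did not pass. cyp11a2 went from 155, 180.3 and 241 FPKM to 426, 452 and 136 FPKM. Labelled replicates 1 and 2 were above all controls and replicate 3 was below all controls, so the groups overlapped. The log2 change was 0.91 ± 0.38 (SE, adjusted p = 0.156, edgeR quasi-likelihood test). fdx1 showed the same arrangement, from 33.1, 40.6 and 46.8 FPKM to 87.8, 86.5 and 33.2 FPKM, with replicate 3 at the level of the lowest control. Its log2 change was 0.88 ± 0.32 (SE, adjusted p = 0.117, edgeR quasi-likelihood test).

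The uptake receptor and the outer membrane protein changed little in size. scarb1 stood at 7.22, 6.82 and 7.18 FPKM in control testis and at 8.07, 8.90 and 8.21 FPKM under the label, with no overlap. For scarb1, replicate 3 was not apart from its group. The means, 7.08 ± 0.220 and 8.39 ± 0.441 FPKM (SD, n = 3), differed 1.19-fold, and the log2 change of 0.36 ± 0.12 (SE) did not pass (adjusted p = 0.0926, edgeR quasi-likelihood test). tspo, at 83.3, 66.4 and 58.7 FPKM in controls and 68.1, 86.4 and 90.2 FPKM under the label, overlapped between the groups and did not pass (log2 change 0.35 ± 0.19 SE, adjusted p = 0.257). For uqcc2, which overlaps it, the log2 change was 0.18 (adjusted p = 0.545).

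The calls in testis changed when single libraries were left out. Without labelled replicate 3, 4 of the 6 genes passed, where 19.7% of all genes tested did: star at a log2 change of 1.87 (adjusted p = 5.47e-06), hsd3b1 at 1.78 (1.76e-06), cyp11a2 at 1.27 (0.00013) and fdx1 at 1.20 (0.000269), while nr5a1 itself stood at 0.97 (adjusted p = 0.00613). Without any one of the other 5 testis libraries star no longer passed, with adjusted p from 0.0622 to 0.131. hsd3b1 held only without labelled replicate 1 (adjusted p = 0.0383), missing at 0.0562 to 0.0887 without any of the other 4. In these 5 fits only 2.24% to 7.48% of all genes passed, against 10.9% with all libraries. The log2 change in them ran from 1.343 to 1.693 for star and from 1.303 to 1.585 for hsd3b1. With limma on log2(FPKM + 1) star missed as well (adjusted p = 0.0567), and with DESeq2 cyp11a2, fdx1 and scarb1 also passed (adjusted p = 0.0449, 0.0383 and 0.0286), where 20.1% of genes did.

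**Figure D2:**
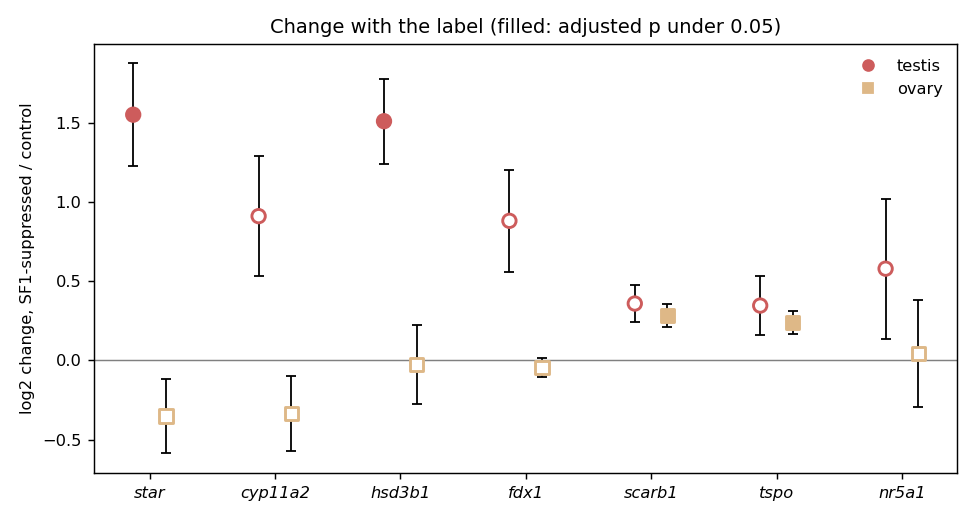
Log2 change under the SF1-suppressed label against control for the 6 genes and nr5a1 in testis (circles) and ovary (squares), with bars of 1 SE and filled symbols for an adjusted p under 0.05. star and hsd3b1 are filled in testis at 1.55 and 1.51, scarb1 and tspo are filled in ovary at 0.28 and 0.24, and nr5a1 is open in both tissues.

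Markers of other cells moved among the same testis libraries. The list for Leydig and theca cells, with 9 of 11 markers in the table, summed to 332 to 615 FPKM in control testis and to 504 FPKM, 578 FPKM and 101 FPKM in replicates 1, 2 and 3 of the labelled testis. Its lowest value was thus in the library that was lowest for star, cyp11a2, hsd3b1 and fdx1 within the labelled group. Most of this sum was cyp17a2 in control testis, and cyp17a2 and hsd11b2 under the label, both given below. In that list 1 of 8 tested genes passed, hsd11b2, beside 10.9% of all genes, and the median log2 change was -0.23. In it 0 genes were at 0 counts in every library of a testis group. The stroma and smooth muscle list, with 7 of 12 markers in the table, summed to 563 to 928 FPKM in control testis and to 2313, 1765 and 446 FPKM in the labelled libraries, with desma at 0 counts in the labelled group. The Sertoli and granulosa list, with 8 of 11 in the table, summed to 1234 to 1311 FPKM and to 2075, 1902 and 1103 FPKM, with 0 markers at 0 counts. The interrenal list, which marks the steroid cells of the head kidney, had 3 of 5 markers in the table and summed to 13.7 to 16.6 FPKM and to 29.6, 35.5 and 8.75 FPKM, nearly all of it cyp11c1, which the gonad also expresses, while mc2r, the receptor for the pituitary hormone that drives the interrenal, was at 0 counts in the labelled testis. Skeletal muscle markers (7 of 8 in the table, ckmb at 0 counts in controls) summed to 74.9 to 79.6 FPKM in control testis and to 241, 167 and 95.1 FPKM under the label. Macrophage and leukocyte markers (6 of 10) summed to 208 to 251 FPKM and to 311, 365 and 229 FPKM, and endothelial markers (6 of 6) to 24.2 to 29.4 FPKM and to 34.8, 35.8 and 20.99 FPKM. In all of these lists except that for Leydig and theca cells, labelled replicates 1 and 2 were above all controls and above replicate 3, as for star. In the Leydig and theca list the highest control, at 615 FPKM, was above both. Germ cell markers (9 of 10) summed to 3007 to 3380 FPKM and to 4039, 3773 and 4860 FPKM, with replicate 3 the highest. By the test 1 of 9 germ cell genes rose (ddx4) and 2 fell (NANOS2 and dnd1), and 1 of 7 Sertoli and granulosa genes rose and 1 fell. In the stroma list 2 of 6 rose, in skeletal muscle 3 of 4, and in the leukocyte and endothelial lists 1 of 5 each, with 0 falling. Over all genes 5.25% rose and 5.68% fell. Lower without overlap under the label were the lists for liver (7 of 10, 32.1 to 39.7 against 11.3 to 13.9 FPKM, fabp10a at 0 counts in controls and fgb under the label), adipocytes (2 of 6, 102 to 124 against 60.5 to 71.7 FPKM) and erythrocytes (2 of 6, 6.99 to 15.04 against 2.57 to 4.44 FPKM), and the oocyte list overlapped (56.7 to 60.6 and 56.2 to 73.0 FPKM). Of the single genes tested in testis, 26.4% were lower without overlap in FPKM. The part of these cell types in the changes of the 6 genes was not tested.

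Ratios of genes within 1 library do not depend on the scaling between libraries, and they separated star and hsd3b1 from cyp11a2 in testis. The ratio of star to cyp11a2 FPKM was 1.37, 1.32 and 1.31 in control testis and 2.08, 1.93 and 2.46 under the label. All of the labelled libraries, replicate 3 included, were above all controls, and replicate 3 had the highest ratio. The ratio was 1.61-fold higher on the geometric mean, a log2 difference of 0.69, with an exact two-sided permutation p of 0.1, the smallest that 3 against 3 libraries can give, and an adjusted p of 0.3 over the 12 ratios tested.

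The ratio of hsd3b1 to cyp11a2 stood at 0.691, 0.660 and 0.582 in control testis and at 0.969, 0.848 and 1.30 under the label. Here too the groups did not overlap. The log2 difference was 0.67 (exact permutation p = 0.1, adjusted p = 0.3). As a background, 1.20% of 14367 genes had a ratio to cyp11a2 that was higher in every labelled testis library than in every control, and 25.2% had one that was lower in every one. cyp11a2 itself had a higher log2 change in testis than 96.6% of the genes tested. Few genes could therefore stand above it, and the small share adds no support beyond the changes already given. When 1 library was left out at a time, the log2 difference ran from 0.59 to 0.77 for star over cyp11a2 and from 0.50 to 0.80 for hsd3b1 over cyp11a2.

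The other planned ratios overlapped between the groups in testis. star over hsd3b1 was 1.98, 2.00 and 2.25 in control testis and 2.15, 2.27 and 1.90 under the label, overlapping (log2 difference 0.02, exact permutation p = 0.9). fdx1 over cyp11a2 was 0.213, 0.225 and 0.194 in control testis and 0.206, 0.191 and 0.243 under the label, overlapping as well (log2 difference 0.01, exact permutation p = 1). Over the 6 testis libraries this ratio stayed between 0.191 and 0.243, while cyp11a2 itself ranged from 136 to 452 FPKM. The ratios of scarb1 and tspo to star had larger log2 differences in size than the other 4 planned ratios in testis, at -1.10 and -1.11, both with overlap (exact permutation p = 0.2 each).

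**Figure D3:**
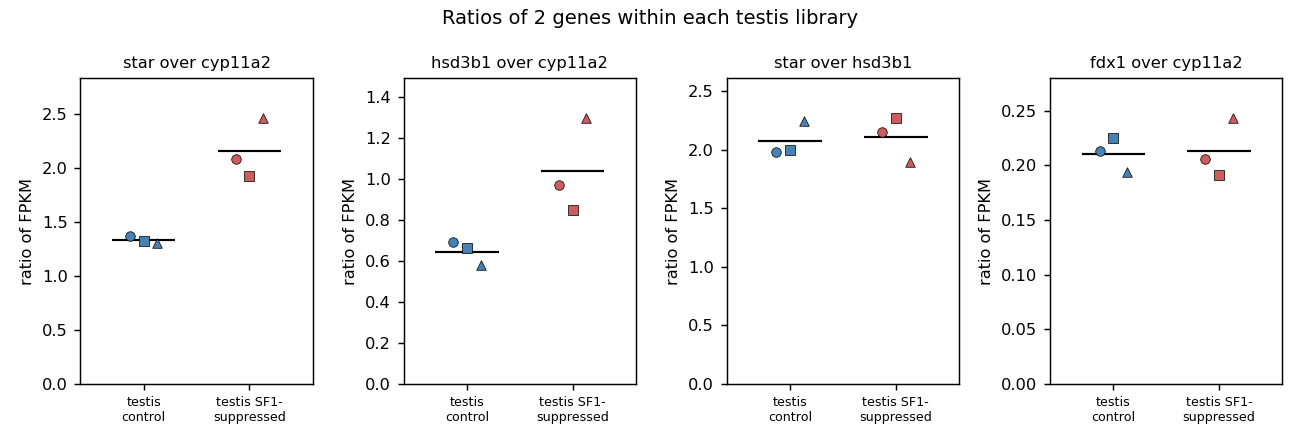
Ratio of the FPKM of 2 genes within each testis library, with circles, squares and triangles for replicates 1, 2 and 3 and a line at the group mean. The ratios of star and of hsd3b1 to cyp11a2 do not overlap between control and labelled libraries, at 1.31 to 1.37 against 1.93 to 2.46 and at 0.582 to 0.691 against 0.848 to 1.30, while star over hsd3b1 and fdx1 over cyp11a2 overlap.

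Ratios to nr5a1 were added after the data had been seen. star over nr5a1 stood at 23.0, 20.2 and 17.6 in control testis and at 37.5, 35.8 and 52.9 under the label, a log2 difference of 1.04 without overlap. hsd3b1 over nr5a1 stood at 11.6, 10.1 and 7.84 in control testis and at 17.4, 15.8 and 27.9 under the label, a log2 difference of 1.02 without overlap. cyp11a2 over nr5a1 was closer, at 16.8, 15.3 and 13.5 in control testis and 18.0, 18.6 and 21.5 under the label, a log2 difference of 0.35, again without overlap. Each had an exact permutation p of 0.1, and 1.46% of 14367 genes had a ratio to nr5a1 that was higher in every labelled testis library than in every control. That share too is small in part because nr5a1 had a higher log2 change than 91.8% of the genes tested in testis. In ovary all of these 3 ratios overlapped between the groups, with exact permutation p from 0.3 to 0.7.

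In ovary scarb1 and tspo rose under the label, by a log2 change of 0.28 and 0.24, and the other 4 did not pass. Over all 12557 genes tested in ovary, 35.9% passed, 18.1% as higher, so 2 of 6 is near the share among all genes. FPKM ranges did not overlap for 3 genes, scarb1 and tspo as higher and fdx1 as lower, against 50.0% of the genes tested.

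The lipoprotein receptor scarb1 went from 117, 107 and 94.7 FPKM in control ovary to 124, 124 and 121 FPKM under the label. The lowest labelled library was above the highest control. The means were 106 ± 10.96 and 123 ± 1.68 FPKM (SD, n = 3), a 1.16-fold difference, with a log2 change of 0.28 ± 0.07 (SE) at an adjusted p of 0.0120 (edgeR quasi-likelihood test). tspo went from 274, 276 and 238 FPKM to 311, 285 and 289 FPKM, also without overlap, a 1.12-fold difference of the means (log2 change 0.24 ± 0.07 SE, adjusted p = 0.0263). Its overlapping gene uqcc2 had a log2 change of 0.10 (adjusted p = 0.375). The call of tspo was lost without control replicate 3, without labelled replicate 1 and without labelled replicate 3, with adjusted p of 0.0907, 0.0886 and 0.0509, and under total count scaling (0.0852), while scarb1 passed without each of the 6 ovary libraries in turn.

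fdx1, at 191, 186 and 194 FPKM in control ovary and 181, 169.7 and 177 FPKM under the label, did not overlap in FPKM. Its log2 change in the fit was -0.04 ± 0.06 (SE, adjusted p = 0.615). Total count scaling, which like FPKM scales by library depth, gave -0.12 (edgeR quasi-likelihood test, adjusted p = 0.147). That scaling put the median of all ovary genes at -0.08, so the lower FPKM of fdx1 lay partly in the scaling. The 3 testis genes stayed low in ovary. star stood at 3.07, 2.77 and 3.74 FPKM in controls and 2.80, 2.81 and 1.55 FPKM under the label (log2 change -0.35 ± 0.24 SE, adjusted p = 0.272). cyp11a2 stood at 7.78, 9.68 and 11.2 FPKM and 7.37, 9.58 and 4.70 FPKM (log2 change -0.33 ± 0.24 SE, adjusted p = 0.297). Both overlapped between the groups, and labelled replicate 3 was the lowest ovary library for each. hsd3b1, at 10.7, 14.7 and 18.1 FPKM in controls and 11.2, 19.6 and 10.05 FPKM under the label, overlapped too (log2 change -0.03 ± 0.25 SE, adjusted p = 0.948).

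In ovary the ratio of star to cyp11a2 was 0.395, 0.286 and 0.335 in controls and 0.380, 0.293 and 0.329 under the label. The groups covered the same range, below every testis library (log2 difference -0.01, exact permutation p = 0.9). hsd3b1 over cyp11a2 had a log2 difference of 0.32, with overlap (exact permutation p = 0.3). The ratios of scarb1 and tspo to star were higher in all labelled ovary libraries than in all controls, by 0.68 and 0.63 on the log2 scale (exact permutation p = 0.1 and adjusted p = 0.3 each), as was the ratio to star of 27.0% of 12556 genes.

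Cell type markers moved in ovary too. The oocyte list, with 6 of 7 markers in the table, summed to 2402 to 2592 FPKM in control ovary and to 3034 to 3128 FPKM under the label, and 5 of its 6 tested genes rose, beside 18.1% of all genes. The stroma list summed to 446 to 499 FPKM and to 843 to 888 FPKM, and all 6 of its tested genes rose. Germ cell markers summed to 534 to 548 FPKM and to 803 to 822 FPKM, with NANOS2 at 0 counts in controls, and 4 of 8 tested rose and 1 fell. Skeletal muscle markers summed to 1187 to 1233 FPKM and to 1518 to 1616 FPKM, and 2 of 3 tested rose, acta1a and eno3. At 0 counts were pvalb4 in both groups, ckmb and mylpfa in controls and tnnt3a under the label. By the test acta1a was higher in testis than in ovary and eno3 higher in ovary, in controls and under the label. The whole list summed to far less in testis, so most of its ovary sum was eno3. All of these lists were higher without overlap, as were 18.5% of the single genes tested in ovary. The liver list, with 7 of 10 in the table and ambp and fabp10a at 0 counts, summed to 1548 to 3640 FPKM in controls and to 207 to 331 FPKM under the label. Only 3 of its genes were tested, tfa, apoeb and apoa1a, and all 3 fell, beside 17.9% of all genes. The sum of the liver list thus rested on few genes. The Leydig and theca list summed to 26.6 to 32.7 FPKM and to 16.7 to 22.9 FPKM, and the interrenal list to 13.2 to 17.8 and to 7.70 to 10.1 FPKM, with mc2r at 0 counts in both groups. Adipocyte markers summed to 355 to 434 FPKM and to 342 to 348 FPKM, and erythrocyte markers to 0.892 to 1.68 FPKM and to 0.317 to 0.834 FPKM. All 5 of these were lower without overlap, as were 31.5% of the single genes tested in ovary. The lists for Sertoli and granulosa cells, macrophages and endothelium overlapped between the ovary groups. The part of these cells in the ovary values of the 6 genes was not tested.

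The testis change and the ovary change differed for star and hsd3b1 when the difference itself was tested on all 12 libraries. The testis change minus the ovary change was 1.87 ± 0.44 (SE) on the log2 scale for star (adjusted p = 0.0127, edgeR quasi-likelihood test) and 1.50 ± 0.42 for hsd3b1 (adjusted p = 0.0307). Of 15382 genes, 15.5% passed this test, 7.33% in the direction of a higher testis change. cyp11a2 and fdx1 had differences of 1.21 ± 0.50 and 0.89 ± 0.35 that did not pass (adjusted p = 0.125 and 0.109). Without labelled testis replicate 3, where 19.9% of genes passed, these also did, at adjusted p of 0.00309 for cyp11a2 and 7.91e-05 for fdx1. For scarb1 and tspo the difference was 0.04 ± 0.12 and 0.07 ± 0.21 (adjusted p = 0.865 and 0.862). The star call held without each of the 12 libraries in turn, while that of hsd3b1 was lost without any of 6 of them, with adjusted p from 0.0585 to 0.0768: control replicates 1 and 2 of testis, control replicates 2 and 3 of ovary, and labelled replicates 1 and 3 of ovary. With limma on log2(FPKM + 0.1) hsd3b1 missed as well (adjusted p = 0.0529). The interaction fit shared its estimate of spread over all 4 groups. For star the SD was 45.0% of the mean in labelled testis and 15.6% in control ovary.

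Between the tissues labelled SF1-suppressed all 6 genes again passed, where 81.1% of 14189 genes did. The log2 difference, testis over ovary, was 8.05 ± 0.50 (SE) for star, 5.41 ± 0.51 for cyp11a2 and 4.44 ± 0.39 for hsd3b1, with adjusted p of 3.27e-06, 3.15e-05 and 2.21e-05 (edgeR quasi-likelihood test). The mean level of star was 293-fold higher in labelled testis than in labelled ovary. fdx1, at -1.49 ± 0.32 (adjusted p = 0.00291), scarb1, at -4.00 ± 0.09 (9.99e-08), and tspo, at -1.98 ± 0.14 (6.39e-06), were again higher in ovary. No library range overlapped between tissues for any of the 6 genes, in controls or under the label, as for 88.0% and 84.2% of the genes tested.

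The shares of the 6 genes differed between the control tissues, while their summed FPKM was similar. It was 599, 652 and 808 FPKM in control testis and 603, 597 and 560.1 FPKM in control ovary. In testis labelled SF1-suppressed it was 1893, 1888 and 780.1 FPKM, and in ovary 638, 611 and 604 FPKM. Only replicates 1 and 2 of the labelled testis stood apart. star made up 35.5%, 36.6% and 38.9% of the sum in control testis and 47.0%, 46.1% and 43.0% in labelled testis, without overlap. The share of cyp11a2 was lower in every labelled testis library, at 22.5%, 23.9% and 17.5% against 25.9%, 27.7% and 29.8%. In ovary star made up 0.257% to 0.668% of the sum over the 6 libraries, while tspo made up 42.5% to 48.8%. These shares add to a fixed whole, so a larger share of 1 gene lowers the others.

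**Figure D4:**
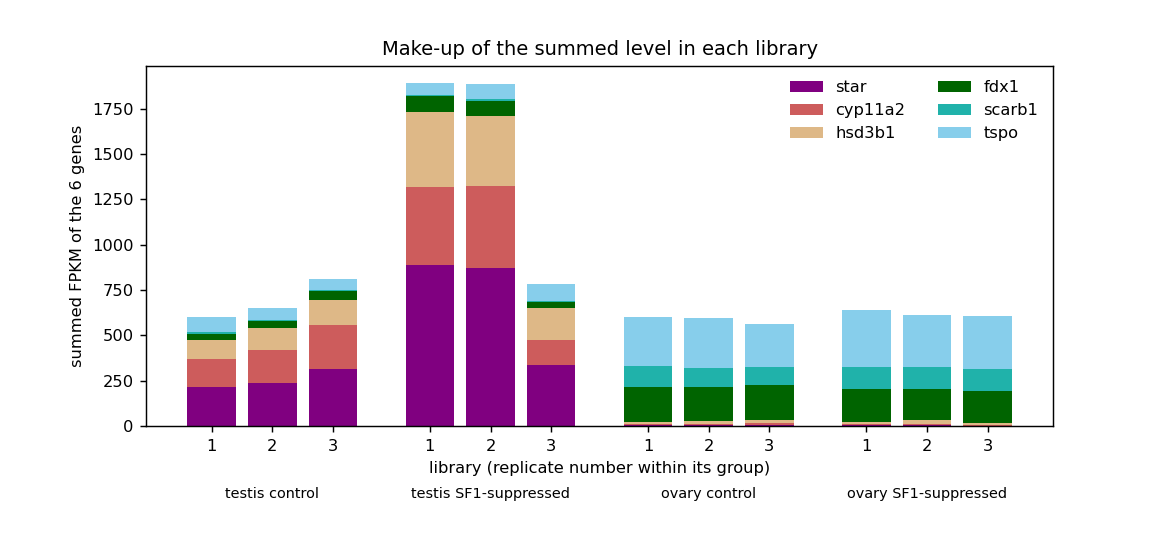
Summed FPKM of the 6 genes in each library, stacked by gene, with libraries ordered by group and replicate number. star, cyp11a2 and hsd3b1 fill most of each testis bar and tspo, fdx1 and scarb1 most of each ovary bar, and the bars of labelled testis replicates 1 and 2 reach 1893 and 1888 against 560.1 to 808 in all other libraries.

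Of 20 genes that supply and store cholesterol tested in testis, 4 rose (ldlra, ldlrb, stard5 and npc2), 2 fell (sqlea and abca1a) and 14 did not pass, beside 5.25% higher and 5.68% lower over all genes. The median log2 change was 0.05 beside 0.00 over all genes. The 6 calls went to 0 without control replicate 2 or 3 and to 1 without control replicate 1 or labelled replicate 2, and limma with a pseudocount of 0.1 made 3. stard5, a cholesterol carrier of the cytosol, rose from 5.90 ± 0.770 to 10.5 ± 0.777 FPKM (SD, n = 3, log2 change 0.95, adjusted p = 0.0252). sqlea, an enzyme of cholesterol synthesis, fell from 6.37 ± 1.31 to 2.45 ± 0.690 FPKM (log2 change -1.27, adjusted p = 0.0214). abca1a, which exports cholesterol, fell from 12.7 ± 3.81 to 5.17 ± 1.48 FPKM (log2 change -1.19, adjusted p = 0.0214).

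In ovary 0 of 19 rose and 7 fell, with a median of -0.28. Over all genes 35.9% passed, 18.1% as higher and 17.9% as lower. The share called in this list was near that of all genes, but all of its calls were lower. ldlra, a low density lipoprotein receptor, fell from 16.0 ± 1.39 to 6.25 ± 0.417 FPKM (SD, n = 3, log2 change -1.29, adjusted p = 2.92e-06). npc1, which moves cholesterol out of lysosomes, fell from 6.97 ± 1.28 to 3.31 ± 0.249 FPKM (log2 change -1.01, adjusted p = 0.000251). insig1, a sterol sensor of the endoplasmic reticulum, fell from 10.2 ± 1.38 to 5.10 ± 0.509 FPKM (log2 change -0.93, adjusted p = 0.00173). The low density lipoprotein receptor and scarb1, the high density lipoprotein receptor, thus changed in opposite directions in ovary. By the test of the interaction, the testis change exceeded the ovary change for 6 of 21 genes of the list and was below it for 0, beside 7.33% and 8.15% of all genes, and 15 did not pass. ldlra and ldlrb rose in testis and fell in ovary, while abca1a fell in both.

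Among partners of mitochondrial import and electron transfer, 1 of 12 genes rose in testis and 0 fell, with a median of 0.22 and beside 10.9% of all genes called. The count was 6 without labelled replicate 3, 0 without any of the controls, 5 with DESeq2 and 2 with limma at a pseudocount of 1. The one that rose was dbi, a binding protein of acyl-CoA and a ligand of tspo in mammals, which rose from 33.1 ± 1.85 to 56.1 ± 12.8 FPKM (SD, n = 3, log2 change 0.89, adjusted p = 0.0263). fdxr did not pass in testis, with 25.2, 33.7 and 43.3 FPKM in controls and 63.7, 64.5 and 27.4 FPKM under the label (log2 change 0.71, adjusted p = 0.163). Its libraries were ordered like those of fdx1, with labelled replicates 1 and 2 above all controls and replicate 3 within them. In ovary 2 rose and 3 fell, with a median of -0.01, beside 35.9% of all genes called. These 5 calls went to 2 without control replicate 2 or labelled replicate 1 and to 3 without control replicate 3 or labelled replicate 3. cyb5r3, a cytochrome b5 reductase, rose from 46.4 ± 2.05 to 56.9 ± 2.74 FPKM (log2 change 0.36, adjusted p = 0.00203), and slc25a4, the ADP/ATP carrier, rose from 43.1 ± 2.93 to 51.4 ± 2.57 FPKM (0.33, adjusted p = 0.00568). cyb5a, which supports P450 reactions, fell from 62.3 ± 11.9 to 42.0 ± 1.53 FPKM (log2 change -0.50, adjusted p = 0.0174), and fdxr fell from 13.1 ± 0.993 to 10.01 ± 0.266 FPKM (-0.32, adjusted p = 0.0177). porb, a P450 reductase, was the third that fell.

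Of the enzymes of later steps, 1 of 13 rose in testis and 0 fell, with a median of 0.08, near the 10.9% called over all genes. The count was 2 without labelled replicate 3, and 0 without any of the other 5 testis libraries and with limma at either pseudocount. The one that rose was hsd11b2, an enzyme of the fish androgen and corticosteroid pathways, which stood at 44.2, 52.8 and 70.0 FPKM in controls and at 218, 242 and 66.6 FPKM under the label (log2 change 1.75, adjusted p = 0.0331). Replicates 1 and 2 were far above the controls and replicate 3 lay within them. cyp17a2, the P450 that acts on progestogens after hsd3b1, had 357 ± 128 FPKM in control testis and 180.1 ± 141 FPKM under the label (SD, n = 3, log2 change -0.91, adjusted p = 0.447), with labelled libraries from 19.3 to 282 FPKM. cyp11c1, which acts on androgens and corticosteroids in fish, had 15.1 ± 1.54 and 24.5 ± 14.0 FPKM (adjusted p = 0.232). In ovary 4 of 15 rose and 4 fell, with a median of 0.02, beside 18.1% and 17.9% of all genes. These 8 calls went to 5 without control replicate 2, control replicate 3 or labelled replicate 1. hsd3b7, which acts on bile acid precursors in mammals, rose from 104 ± 1.45 to 205 ± 4.19 FPKM (log2 change 1.05, adjusted p = 2.55e-07), cyp21a2, of corticosteroid synthesis, rose from 0.851 ± 0.306 to 1.66 ± 0.359 FPKM (1.03, adjusted p = 0.0338), and cyp11c1 fell from 14.8 ± 2.12 to 7.22 ± 0.875 FPKM (-0.96, adjusted p = 0.000257). cyp17a2 and hsd11b2 did not pass in ovary (adjusted p = 0.315 and 0.809).

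The list of gonadotropin and cyclic AMP signalling and transcription had 0 of 21 genes higher and 2 lower in testis. It had a median of -0.06, and its share of calls was near the 10.9% over all genes. It had 4 calls without labelled replicate 3 and 1 without any of the other 5 testis libraries, without the filter and with limma at either pseudocount. cebpb, a transcription factor that binds the star promoter in mammals, fell from 104 ± 6.45 to 44.2 ± 8.02 FPKM in testis (SD, n = 3, log2 change -1.12, adjusted p = 0.00205) and from 78.3 ± 16.1 to 45.6 ± 12.8 FPKM in ovary (log2 change -0.71, adjusted p = 0.0174). pde4d, which degrades cyclic AMP, fell by 0.51 in testis and by 0.96 in ovary on the log2 scale (adjusted p = 0.0420 and 0.0486). lhcgr, the luteinising hormone receptor, had 1.46 ± 0.390 FPKM in control testis and 2.07 ± 0.625 FPKM under the label (log2 change 0.61, adjusted p = 0.185). In ovary 1 of 22 rose and 5 fell, with a median of -0.11, beside 35.9% of all genes called. These 6 calls went to 3 without control replicate 2 and to 2 without control replicate 3, labelled replicate 1 or labelled replicate 3. The one that rose was adcy9, an adenylate cyclase (log2 change 0.58, adjusted p = 0.0152).

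Across all 12 libraries, the genes whose levels ran most like those of star were looked for by the root mean square distance between log2(FPKM + 1) values centred within each tissue, among 13554 genes. star itself varied by 0.62 on that scale. The nearest was hsd11b2 at 0.19, followed by hsd3b1 at 0.22, cpe (carboxypeptidase E) at 0.22, aldh8a1 (an aldehyde dehydrogenase) at 0.25, tbx1 (a T-box transcription factor) and ptger1b (a prostaglandin E receptor) at 0.27, and aplnra (an apelin receptor) and cyp11a2 at 0.28. cpe, aldh8a1, tbx1, ptger1b and aplnra differed widely from star in level. ptger1b stood at 0.066 to 0.552 FPKM in the ovary libraries, where the added 1 flattens its changes. In testis aldh8a1 stood at 4.81, 5.54 and 5.09 FPKM in controls and at 24.0, 27.0 and 8.30 FPKM under the label. fdx1 took place 12 and nr5a1 place 190 in the order of distance from star, scarb1 place 2260 and tspo place 5751.

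cyp11a2 had other neighbours than star. The nearest was cyb5r2, a cytochrome b5 reductase, at 0.15, with 108, 102 and 125 FPKM in control testis and 243, 245 and 82.0 FPKM under the label. As with cyp11a2, its labelled replicates 1 and 2 were above and replicate 3 below all controls. si:ch211-113j13.2 and ada (adenosine deaminase) followed at 0.21 and 0.22, and nr5a1 took place 9 and fdx1 place 10, while star was at place 23 and hsd3b1 at place 46. The nearest to hsd3b1 were aplnra at 0.19, star at 0.22 and hsd11b2 at 0.25. The nearest to fdx1 were pdgfab (a platelet-derived growth factor) at 0.09, ddr2a (a collagen receptor) at 0.11 and fdxr at 0.13. ddr2a stood at up to 0.127 FPKM in the ovary libraries, where the added 1 flattens its changes, and at 0.522 to 2.46 FPKM in testis. scarb1 and tspo varied little, by 0.13 and 0.18, and the distances of their neighbours were small as well. They were ube3d, emc6 and phb, at 0.05 to 0.06, for scarb1 and psmb4, tmem126a and ndufs4, at 0.07 to 0.08, for tspo. These distances describe 12 libraries that share groups and depth, and carry no test.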

How the data were processed

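RNA of 12 gonad libraries was analysed from 1 deposited table. Per the file headers, the table gave, for each library, counts per gene, which the authors had not normalised, and FPKM, which the authors had computed. The submitters' processing notes name HISAT and StringTie with no version. Genome build, annotation release and strand setting: not given in the sources used here. All 12 count columns were matched to a library by name and 0 value columns were left unmatched. A gene at a count of 0 was listed at 0.0001 FPKM.

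A gene entered a comparison with 1 FPKM or more in 3 or more of its libraries. The deposited counts were fitted in edgeR 4.0.16 (R 4.3.3), scaled by TMM, with its quasi-likelihood F test and Benjamini-Hochberg adjustment over the genes tested, at 0.05. Testis, ovary, control and SF1-suppressed libraries were each fitted alone, and the difference between tissues (the interaction) on all 12. Ratios of FPKM were compared by exact two-sided permutation. The tests were tried on simulated counts. Alternatives were scaling, filter, DESeq2 1.42.0, limma 3.58.1 on log2(FPKM + 1) and log2(FPKM + 0.1), a replicate block, and each library left out. The smallest count of any of the 6 genes was 277, with a 95% Poisson interval of 12.0% to each side (counting error only). Replicates differed by 11.9 to 159 times the counting noise (chi-square per degree of freedom), so none was a copy of another.

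The 6 genes and all lists were chosen with earlier results of these data known. Genes named were the 6, nr5a1, the 3 largest changes past the test per list and tissue, fdxr, cyp17a2, cyp11c1, lhcgr, hsd11b2, the 8 genes most like star and the 3 most like each other member. In lists of 5 or fewer calls the rest were named after their values were seen, as were uqcc2, aldh8a1 and cyb5r2 with their library values, dmrt1 and zar1. cyp17a1 was not analysed here. The functional terms in the table were not used, since those given for fdx1 belong to another enzyme.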

Additional observations from a re-analysis of the deposited data

Results flagged for a closer look

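The change under the SF1-suppressed label differed between testis and ovary for star and hsd3b1. By a test of the difference itself over all 12 libraries, the testis change exceeded the ovary change by 1.87 on the log2 scale for star (edgeR quasi-likelihood test, adjusted p = 0.0127) and by 1.50 for hsd3b1 (adjusted p = 0.0307), a test that 15.5% of all genes passed. The hsd3b1 call was lost without any of 6 libraries, at adjusted p from 0.0585 to 0.0768: testis control replicates 1 and 2, ovary control replicates 2 and 3, and labelled ovary replicates 1 and 3. In testis all 3 labelled libraries were above all 3 controls for both genes, as for 12.5% of all genes tested there, and in ovary the groups overlapped for both. In the same libraries nr5a1 had a log2 change of 0.58 in testis and 0.04 in ovary, neither past the test.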

How the results depend on the processing

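Of the 6 genes, 2 passed in testis, 2 in ovary and 2 in the interaction, beside 10.9%, 35.9% and 15.5% of all genes. In testis DESeq2 called 5 (20.1% of all genes) and limma 1 with either pseudocount (12.9% and 11.5%). The fit with a replicate block called 0, but only 1.92% of all genes. With 1 library left out the count ran from 0 to 4, where 2.24% to 19.7% of all genes passed. In ovary total count scaling and limma with either pseudocount called 1, and with 1 library left out 1 to 2. In the interaction DESeq2 called 4 and limma with a pseudocount of 0.1 called 1, and with 1 library left out 1 to 4. Both tissue comparisons called 6 under every alternative run, where 72.0% to 87.6% of all genes passed in controls and 65.4% to 84.9% under the label. The replicate numbers did not pair the libraries: the correlation of deviations between same-numbered libraries ran from -0.25 to 0.093 and never passed 0.1, so the block is only a description. It moved the calls over all testis genes from 1571 to 276.

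Directions turned only for values that had not passed. In ovary, with 1 library left out, the log2 change of hsd3b1 ran from -0.36 to 0.16, that of fdx1 from -0.063 to 0.0016 and that of nr5a1 from -0.32 to 0.33; nr5a1 was at -0.025 with total count scaling and at -0.023 and -0.037 with limma at pseudocounts of 1 and 0.1. In the interaction scarb1 ran from -0.028 to 0.15 and tspo from -0.053 to 0.30. Ratios did so for star over cyp11a2 in ovary (-0.13 to 0.10), star over hsd3b1 in testis (-0.037 to 0.092), fdx1 over cyp11a2 in testis (-0.085 to 0.088) and hsd3b1 over nr5a1 in ovary (-0.22 to 0.031). The cause was not tested.

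Total count scaling moved the median of all testis genes from 0.00 to -0.12, and the calls from 755 higher and 816 lower to 554 and 1183. In ovary it moved calls from 2268 higher and 2242 lower to 1699 and 3014. Over all testis genes DESeq2 called 2890. Of the 8 genes most like star, 4 remained when the 6 testis libraries alone were used, and 4 with a pseudocount of 0.1. Counts of the 6 genes were high, so the spread between 3 libraries, not depth, limited these comparisons.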
